A study of Mus musculus with 42 samples.

Results

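The phase II conjugation enzymes were followed in the livers of WT and ChemR23 KO mice. A gene was counted as a member when its name began with Ugt1, Ugt2, Ugt3, Gsta, Gstm, Gstp, Gstt, Gstk, Gsto, Gstz or Sult in the table that compares WT obese with WT lean mice, which gave 44 genes of the 15136 listed there. These were 18 UDP-glucuronosyltransferase (Ugt) genes, 19 glutathione S-transferase (Gst) genes and 7 sulfotransferase (Sult) genes. Members were taken by name from the genes listed in that table, so family genes not listed there, such as Sult3a1, were left out, and no difference between groups entered the rule.

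Phase II enzymes attach a polar group to drugs, pollutants and the body's own lipophilic compounds, which are then carried out of the hepatocyte by efflux pumps into bile or blood. Ugt enzymes sit in the endoplasmic reticulum and transfer a sugar, usually glucuronic acid, to bilirubin, bile acids, steroids and phenols. Gst enzymes join glutathione to electrophiles such as the aldehydes left by lipid peroxidation, and Sult enzymes transfer sulfate from the donor PAPS to steroids, thyroid hormones and phenols. The liver is the main site of all these reactions, and many of the genes are known targets of the sensors CAR, PXR, AhR and Nrf2.

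Livers came from 42 male C57BL/6J mice, 7 in each of 6 groups, with 1 RNA library per mouse. WT lean and KO lean mice ate a diet with 10% of energy as fat, and WT obese and KO obese mice a diet with 60%, from 6 weeks of age for 15 weeks. All 4 of these groups received vehicle (ethanol in PBS), while the WT obese+RvE1 and KO obese+RvE1 groups received 300 ng of RvE1, an eicosapentaenoic acid product that acts through ChemR23, by injection on 4 days before harvest on day 5 after a fast of at least 4 hours. The KO mice lack ChemR23 in the whole body through CRISPR/Cas9 editing of Cmklr1, so the genotype is not specific to hepatocytes. Between 15992525 and 43841120 reads per library fell on listed genes, with a median of 24298289.5.

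Values are normalized counts, that is reads divided by a size factor that was set separately for each of the 6 comparisons, so groups were compared only within a table. A member was called when limma gave a Benjamini-Hochberg adjusted p under 0.1 over all genes of the table and a fold change above 1.5, on the log2(normalized count + 1) scale, which understates the change of low genes. All 44 members were tested in 4 of the tables, and 42 in the comparisons of KO lean with WT lean mice (without Gsta1 and Ugt1a7c) and of WT obese+RvE1 with WT obese mice (without Ugt1a10 and Ugt1a7c). Cmklr1, the gene edited in the KO, had 9.72 to 22.6 normalized counts in KO lean and 40.8 to 114 in WT lean mice, with no overlap and lower in the mice labelled KO (log2 FC -2.23, SE 0.24, adjusted p = 0.000492). Of 8 hepatocyte markers, all were listed in every table and Alb, which encodes albumin, was the most abundant.

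Of the 44 members, 36 lie in 7 clusters on GRCm38 (mm10), with neighbours less than 500000 bases apart. The Ugt1a cluster on chromosome 1 (88055388 to 88220002) holds 8 members. It is built so that each transcript starts from its own promoter and leading exon and then runs into a set of exons that all share, and between 50.3% of the exonic bases (Ugt1a6a) and 60.6% (Ugt1a6b) overlap another member. How the authors assigned reads in these shared exons is not given in the sources used here, so the split of reads among Ugt1a members is uncertain. On chromosome 5 (86889767 to 87591594), 8 Ugt2 genes stand beside Sult1b1, Sult1d1 and Sult1e1. The other clusters hold 7 Gstm genes on chromosome 3, 3 Gstt genes on chromosome 10, Gsta1, Gsta2 and Gsta4 on chromosome 9, both Ugt3a genes on chromosome 15 and both Gstp genes on chromosome 19. Members of 1 subfamily can resemble each other in sequence, which was not measured here, and reads that match several of them may have been divided or dropped.

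Because the Ugt1a members differ mainly in promoter and leading exon, the promoters of 4 of them are printed, Ugt1a5 and Ugt1a9, which were downregulated with the high fat diet in WT mice, and Ugt1a6a and Ugt1a1, which were not. The sequences are from RefSeq (GRCm38.p6), run 5′ to 3′ on the plus strand and cover 250 bases before to 50 after the annotated start. They lie at chr1:88165762-88166061 (Ugt1a5), chr1:88070529-88070828 (Ugt1a9), chr1:88134559-88134858 (Ugt1a6a) and chr1:88211709-88212008 (Ugt1a1). Capitals mark a match, on either strand, to a motif searched in all promoters, here the HNF1 element in Ugt1a9 and Ugt1a1, GCGTG (the core bound by AhR) in Ugt1a5 and TTCNNNGAA (STAT) in Ugt1a6a. The letters TGACNNNGC (the antioxidant response element bound by Nrf2) were searched too.
Ugt1a5: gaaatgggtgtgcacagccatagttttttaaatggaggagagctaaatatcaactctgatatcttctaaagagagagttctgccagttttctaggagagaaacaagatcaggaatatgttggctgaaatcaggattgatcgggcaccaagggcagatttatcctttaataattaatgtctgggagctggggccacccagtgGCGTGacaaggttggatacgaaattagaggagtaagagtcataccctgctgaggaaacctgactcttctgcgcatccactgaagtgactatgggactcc
Ugt1a9: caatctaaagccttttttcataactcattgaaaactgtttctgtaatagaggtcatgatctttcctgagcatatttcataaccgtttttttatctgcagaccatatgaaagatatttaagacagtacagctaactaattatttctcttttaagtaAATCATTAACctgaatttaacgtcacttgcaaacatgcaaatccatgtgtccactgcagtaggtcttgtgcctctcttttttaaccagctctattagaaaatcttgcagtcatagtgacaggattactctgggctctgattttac
Ugt1a6a: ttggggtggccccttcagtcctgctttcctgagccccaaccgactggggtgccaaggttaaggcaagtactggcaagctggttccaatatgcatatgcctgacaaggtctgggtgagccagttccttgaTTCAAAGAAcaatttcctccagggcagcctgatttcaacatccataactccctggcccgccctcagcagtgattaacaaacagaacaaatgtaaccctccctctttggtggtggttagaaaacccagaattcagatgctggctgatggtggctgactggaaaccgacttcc
Ugt1a1: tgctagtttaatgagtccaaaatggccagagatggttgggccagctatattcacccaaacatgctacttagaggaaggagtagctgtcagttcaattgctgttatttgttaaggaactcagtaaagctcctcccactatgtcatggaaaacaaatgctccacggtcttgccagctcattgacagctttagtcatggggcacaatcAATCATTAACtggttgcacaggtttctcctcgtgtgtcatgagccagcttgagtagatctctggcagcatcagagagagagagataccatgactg

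The HNF1 element stood in the promoters of Ugt1a9, Ugt1a1, Ugt1a10 and Sult1d1, which is 8.51% of 47 member promoters against 0.399% of all 32851 promoters of the same length. It occurred both in Ugt1a9, which was downregulated in WT obese mice, and in Ugt1a1, which was not called. The Nrf2 letters stood in 6.38% of member promoters (Gsta3, Gstm5 and Gstm7) against 12.4% of all, the AhR core in 19.1% against 32.4%, and the STAT letters in 6.38% against 8.3%. A direct repeat with a spacer of 1 base, as bound by nuclear receptors, stood in 0 member promoters against 0.0396% of all. The 47 promoters covered 39 members, and the windows do not reach distal elements.

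Per kilobase of exon, 4 of the 8 Ugt2 genes were the most abundant members in WT liver. Ugt2b5, a member of the subfamily that glucuronidates steroids and bile acids, led with 15159 normalized counts per kb averaged over WT lean and WT obese mice, followed by Ugt2b36 at 8816, Ugt2b1 at 8354 and Ugt2a3 at 5072. The subfamily also held scarce members, with Ugt2b37 at 80.1. Sult1a1, which sulfates phenols, came next at 3934, ahead of Gsta3 at 3845 and Gstm1 at 3675. Among Ugt1a members, Ugt1a1, the bilirubin-conjugating form, had 2024 and Ugt1a7c only 1.37, the lowest of the 44. Gstz1, which also acts in tyrosine breakdown, had 2937, and Ugt3a2 had 3190. All 44 members together took a median of 0.737% of listed reads in WT lean and 0.899% in WT obese mice, with overlap between groups (0.591% to 0.973% and 0.727% to 1.26%).

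**Figure D1:**
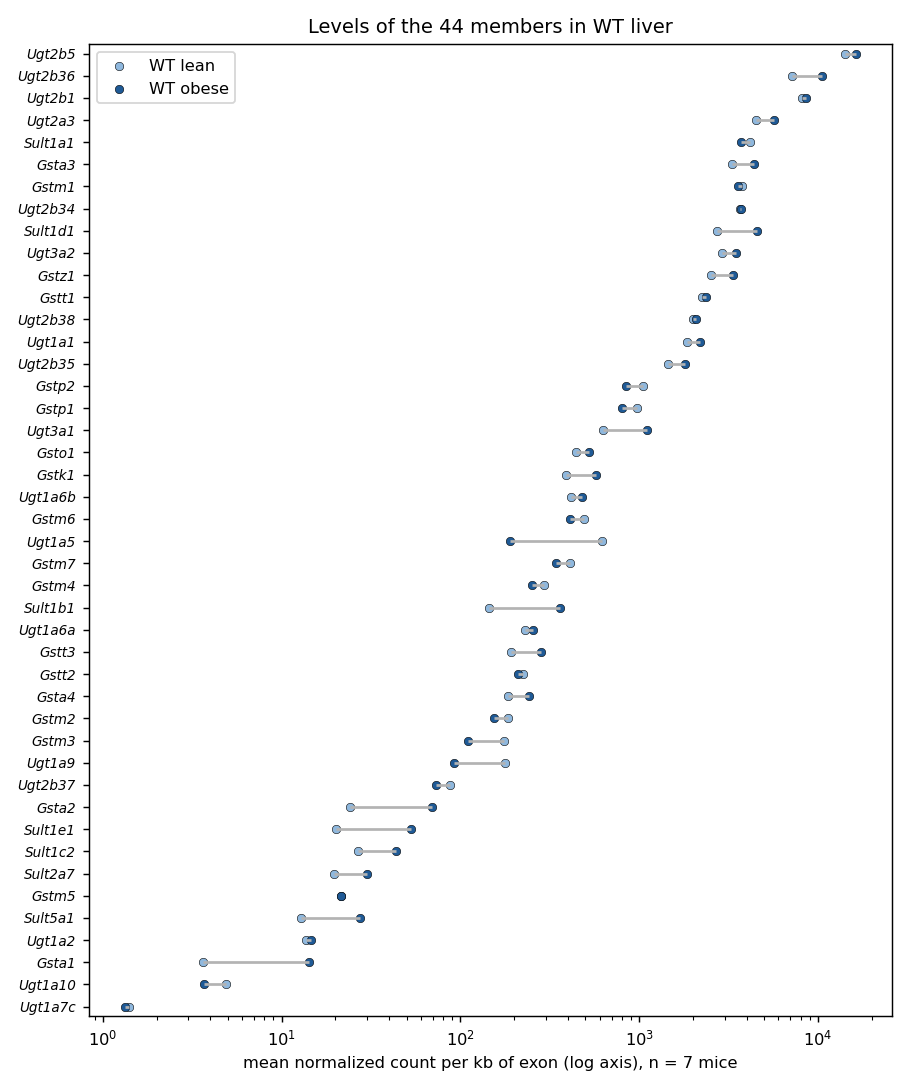
Mean normalized count per kb of exon (log axis, n = 7 mice per group) of each of the 44 members in WT lean and WT obese mice. Ugt2b5 is the highest at 15159 averaged over both groups and Ugt1a7c the lowest at 1.37, and the widest gaps between the groups are seen for Ugt1a5, which is higher in lean mice, and for Gsta1, Gsta2, Sult1e1 and Sult1b1, which are higher in obese mice.

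Spread between mice of a group was wide. Among the 35 members with a mean of at least 50 normalized counts in WT lean mice, the coefficient of variation had a median of 24.8% and ran from 12.4% (Gstt3) to 85.1% (Ugt2b37). In WT obese mice it had a median of 32.2% over 38 members, from 10.8% (Ugt3a1) to 91.5% (Gsta2). Of the 11 members of the chromosome 5 cluster, 8 had their highest value in mouse 20-2L among KO lean mice and 8 in 30L among WT obese+RvE1 mice. Mouse 27RL was the highest for 7 among WT obese mice and 23-2L for 5 among KO obese+RvE1 mice. In WT lean mice 19R and 26L were each the highest for 4 members, and in KO obese mice 31L and 31N were each the highest for 4.

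Obesity was examined in WT mice, 7 obese against 7 lean. The high fat diet upregulated Sult1b1, Sult1e1, Sult5a1 and Ugt3a1 and downregulated Ugt1a5 and Ugt1a9. That is 6 of 44 members (13.6%), where 3.8% of all 14012 genes were called. Of these, 4 were higher (9.09%, against 2.26% of all genes) and 2 lower (4.55%, against 1.53%). The median log2 FC was 0.22 over the members, with 27 of 44 above 0, and 0.00 over all genes. By family, the median was 0.66 for the 7 Sult genes, 0.18 for the 18 Ugt genes and -0.03 for the 19 Gst genes.

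Ugt1a5 (chromosome 1, 88166012 to 88218997) had 662 normalized counts in the lowest WT lean mouse, a median of 1334 and a highest value of 1991. In WT obese mice the lowest, median and highest values were 237, 369 and 849. All but 1 of the obese mice, 6L at 849, lay below the lowest lean mouse. The log2 FC was -1.73 (SE 0.29, adjusted p = 0.00348), a fold of 0.302 and the largest decrease of the 44 members. It stayed between -1.92 and -1.61 with each mouse left out in turn and was called each time.

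Ugt1a9 (chromosome 1, 88070800 to 88218997), whose product conjugates phenols, ran from 288 to 550 normalized counts in WT lean mice with a median of 351. WT obese mice ran from 87.9 to 372 with a median of 197, and mouse 6R at 372 was the sole obese mouse above the lowest lean one. The log2 FC was -1.01 (SE 0.24, adjusted p = 0.0298). In the same cluster, Ugt1a1 had a median of 3960 in lean and 5039 in obese mice (log2 FC 0.22, adjusted p = 0.6), Ugt1a6a had 946 and 1033 (0.15, adjusted p = 0.581) and Ugt1a6b had 937 and 1127 (0.22, adjusted p = 0.449). None of these last 3 was called, and their groups overlapped. Within the cluster, the members called in WT mice were thus both lower in obese mice while the most abundant member was not called.

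Ugt3a1 (chromosome 15, 9276888 to 9315032) transfers N-acetylglucosamine in place of glucuronic acid. It had 1202 to 2168 normalized counts in WT lean mice (median 1842) and 2375 to 3413 in WT obese mice (median 2938). The groups did not overlap, and the log2 FC was 0.84 (SE 0.14, adjusted p = 0.0036). Its neighbour Ugt3a2 had medians of 9063 and 11527 (log2 FC 0.26, adjusted p = 0.243) and was not called. None of the 8 Ugt2 genes was called, and their log2 FC ran from -0.06 (Ugt2b1) to 0.54 (Ugt2b36, adjusted p = 0.261).

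**Figure D2:**
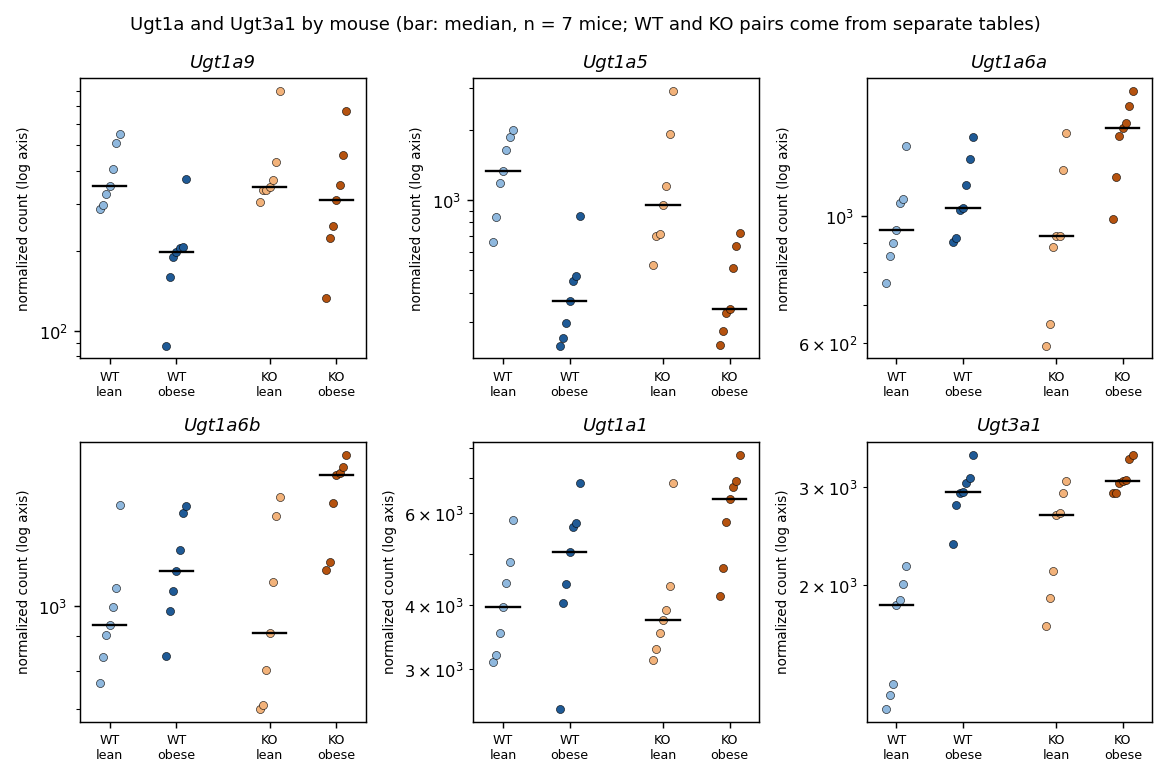
Normalized counts (log axis) of 5 Ugt1a members and Ugt3a1 in each mouse, with bars at group medians (n = 7 mice per group) and WT and KO pairs taken from separate tables. Ugt1a5 is lower in obese than in lean mice in both genotypes, Ugt1a1, Ugt1a6a and Ugt1a6b are not, and the WT groups of Ugt3a1 do not overlap.

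The Sult genes called in WT mice differ widely in abundance. Sult1b1 (chromosome 5, 87513339 to 87538195), which sulfates thyroid hormones, had 287 to 494 normalized counts in WT lean mice with a median of 394. WT obese mice had 615 to 1810 with a median of 907, so that the groups did not overlap. The log2 FC of 1.26 (SE 0.19, adjusted p = 0.00202) corresponds to 2.4-fold, and every mouse could be left out without loss of the call. Together with Ugt3a1 and Gstk1, Sult1b1 was 1 of 3 members (6.82%) without overlap between groups, against 1.36% of all genes tested.

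Sult1e1 (chromosome 5, 87575969 to 87591594), the estrogen sulfotransferase, was scarce, with 6.2 to 49.1 normalized counts in WT lean mice (median 15.7) and 25.8 to 97.5 in WT obese mice (median 71.3). Its log2 FC was 1.58 (SE 0.45, adjusted p = 0.0688), the largest increase called, though the call was lost without any 1 of 21L, 26R, 8RL, 8R, 27-2L, 27-2R, 27RL and 6RL. Sult5a1 (chromosome 8, 123140192 to 123158315) had 15.8 to 76 in lean mice (median 59.6) and 72.5 to 205 in obese mice (median 128), a log2 FC of 1.15 (SE 0.31, adjusted p = 0.0548). In 6 of 7 obese mice it exceeded the highest lean mouse, and the call was lost without 27-2L or 6RL. Mouse identifiers begin with a number that several mice share. In both diet comparisons and between lean WT and KO mice, no number occurred in both groups. What the number marks therefore cannot be told apart from diet or genotype there. The main fit treats the 7 mice of a group as independent. In a fit with the identifier number as a block, neither Sult1e1 (adjusted p = 0.229) nor Sult5a1 (adjusted p = 0.14) was called. The estimated correlation within a number was 0.263 in this comparison.

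No Gst gene was called in WT mice. Gstk1, which works in mitochondria and peroxisomes, had 451 to 711 normalized counts in lean and 733 to 1088 in obese mice without overlap, but its log2 FC of 0.56 (adjusted p = 0.0152) lay under the fold threshold. Gstt3 (0.53, adjusted p = 0.05) and Gstz1 (0.41, adjusted p = 0.0949) also passed 0.1 with a fold under 1.5, so that 9 members (20.5%) passed without the fold threshold, against 6.27% of all genes. Gsta2 and Gsta1, alpha class enzymes, had log2 FC of 1.497 (adjusted p = 0.106) and 1.43 (adjusted p = 0.119) and did not pass. All 7 Gstm genes had log2 FC below 0, from -0.67 (Gstm3, adjusted p = 0.173) to -0.03 (Gstm5), and none passed.

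In KO mice, obesity upregulated 7 members and downregulated 1, in 7 obese against 7 lean mice. These 8 of 44 members (18.2%) stand beside 10.4% of all 14213 genes tested. By direction, 15.9% of members were higher against 4.97% of all genes and 2.27% lower against 5.42%. The upregulated members were Gsta2, Gsta4, Gstt3, Sult1b1, Sult1c2, Sult5a1 and Ugt1a6a, and the downregulated member was Ugt1a5. Of these 8, Gsta4 and Ugt1a5 were also called with the identifier number as a block, and the others were not. No member was without overlap between groups (0%, against 2.1% of all genes). The median log2 FC was 0.09 over members and 0.00 over all genes.

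Ugt1a5 ran from 527 to 2920 normalized counts in KO lean mice (median 951) and from 240 to 721 in KO obese mice (median 340). In 5 of 7 obese mice it lay below the lowest lean mouse. The log2 FC was -1.41 (SE 0.35, adjusted p = 0.0172). It was called with each mouse left out, between -1.58 and -1.17. Ugt1a6a (chromosome 1, 88134809 to 88218997), which conjugates planar phenols, was higher, from a median of 924 (594 to 1399) to 1430 (990 to 1657), a log2 FC of 0.59 (SE 0.18, adjusted p = 0.0347). This is just over the fold threshold, and the call was lost by fold with edgeR (0.56) and DESeq2 (0.55). Ugt1a6b (0.58, adjusted p = 0.0342) and Ugt1a1 (0.58, adjusted p = 0.0371) lay just under it. Ugt1a9 had a log2 FC of -0.38 (adjusted p = 0.404) in KO mice, with medians of 348 and 311.

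Gsta4 (chromosome 9, 78182774 to 78209349), which detoxifies hydroxynonenal from lipid peroxidation, had 133 to 275 normalized counts in KO lean mice (median 189) and 241 to 495 in KO obese mice (median 348). It exceeded the top lean mouse in 6 of 7 obese mice, the log2 FC was 0.75 (SE 0.18, adjusted p = 0.0156), and the call held with every mouse left out. Gsta2 (chromosome 9, 78331018 to 78355788) was low and scattered, with 10.6 to 121 in lean (median 26.6) and 47 to 131 in obese mice (median 64.5). Its log2 FC of 1.28 (SE 0.43, adjusted p = 0.0554) was not called by edgeR (adjusted p = 0.126). Gstt3 (chromosome 10, 75774115 to 75781414), a theta class enzyme, had medians of 951 and 1364 and a log2 FC of 0.68 (SE 0.22, adjusted p = 0.0504). Gstm7 (-0.47, adjusted p = 0.0175) and Gstt2 (-0.54, adjusted p = 0.0181) passed 0.1 with smaller folds, and 15 members (34.1%) passed without the fold threshold against 24.1% of all genes.

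Among the Sult genes, Sult1b1 had 479 to 954 normalized counts in KO lean (median 655) and 565 to 1611 in KO obese mice (median 1002), a log2 FC of 0.61 (SE 0.20, adjusted p = 0.0535). Sult1c2 had medians of 48.9 and 101 (log2 FC 0.80, SE 0.28, adjusted p = 0.0598), and Sult5a1 had medians of 92 and 137 (0.73, SE 0.27, adjusted p = 0.0788). The groups overlapped for all 3. Sult1e1, upregulated in WT mice, had medians of 36.8 and 55.4 here (0.51, adjusted p = 0.497).

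In this comparison the median log2 FC rose with exon length, from -0.17 in genes under 1.5 kb to -0.10 between 1.5 and 4 kb and 0.09 above 4 kb. Among the called members, Ugt1a6a and Sult5a1 are longer than 4 kb, with 4312 and 4419 exonic bases. A correction for length and GC content called 9 members, which no longer held Ugt1a6a (0.58, adjusted p = 0.0511) and added Ugt1a1 and Ugt1a6b. Sult5a1 was kept (0.72, adjusted p = 0.0908). The share of all genes called with this correction is not given here, so the count shows only how the calls moved.

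With the identifier number as a block, 3 members were called in KO mice, beside 5.28% of all 14213 genes tested. The 3 members were Gsta4, Ugt1a5 and Ugt1a6b, of which the last was not among the 8. Leaving out mouse 9L or 9RL ended the calls of Gsta2, Gstt3 and Ugt1a6a. Gsta2 was also lost without 10R, and Ugt1a6a without 10-2L, 10RL, 31L or 31R. The call of Sult1b1 was lost without 14-2L, 20R, 23L, 31L or 31N, that of Sult1c2 without 14-2L, 14RL, 9L, 10-2L, 10RL, 10R or 31R, and that of Sult5a1 without 14RL, 20-2L, 20R, 10RL, 23L, 31N or 31R.

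**Figure D3:**
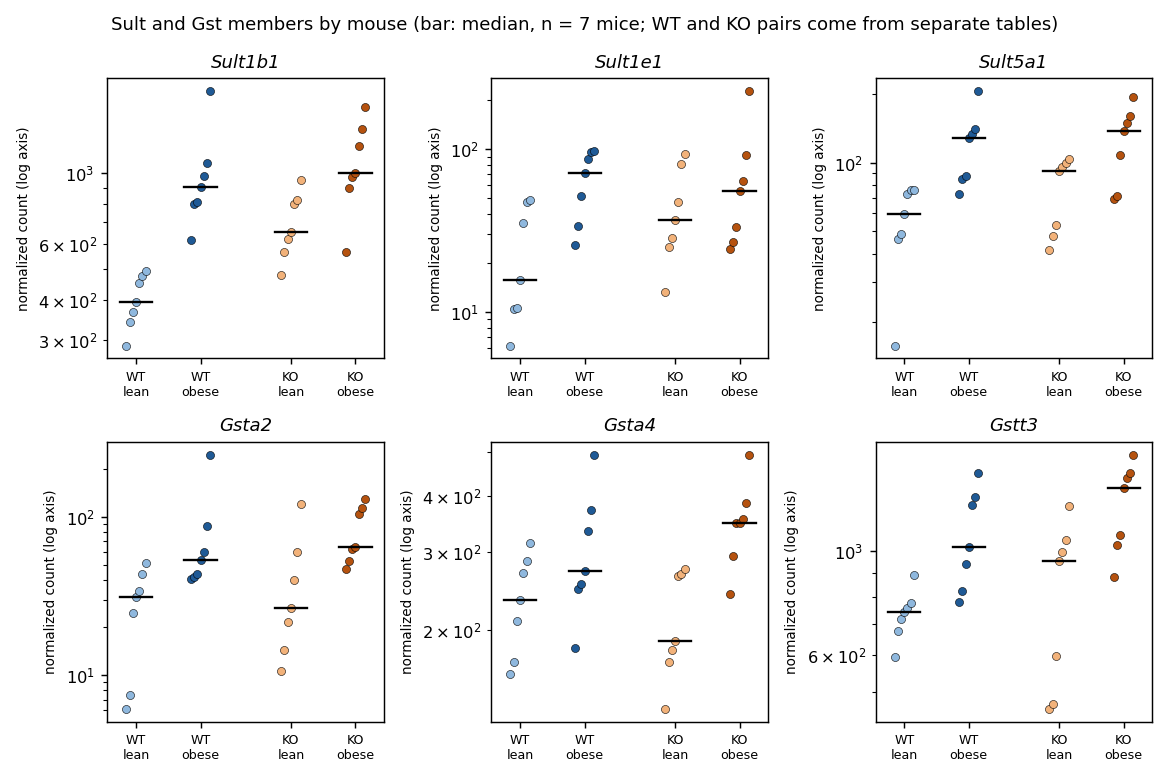
Normalized counts (log axis) of 3 Sult and 3 Gst genes in each mouse, with bars at group medians (n = 7 mice per group) and WT and KO pairs taken from separate tables. Sult1b1 does not overlap between WT lean (287 to 494) and WT obese mice (615 to 1810), whereas all 6 genes overlap between KO lean and KO obese mice.

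Whether the diet acted differently in the genotypes was tested as the difference of both diet effects. Limma called 0 of 44 members for this interaction at an adjusted p under 0.1, where 0.00718% of 13924 genes were called, and 4 members had an unadjusted p under 0.05 (18.3% of genes). DESeq2 and edgeR also called 0 members. The smallest values were those of Ugt3a1 (KO minus WT log2 FC -0.46, SE 0.19, adjusted p = 0.203) and Sult1b1 (-0.66, SE 0.29, adjusted p = 0.228). For Ugt1a5 the difference was 0.32 (SE 0.48, adjusted p = 0.771) and for Ugt1a9 0.64 (SE 0.40, adjusted p = 0.409). Calls made in 1 genotype are therefore not shown to differ from those in the other.

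In lean mice, 7 KO were compared with 7 WT animals, and the members higher in KO mice were mostly from the chromosome 5 cluster. Ugt2b5, Ugt2b36, Ugt2b38, Sult1b1 and Sult1d1 of that cluster and Sult2a7 on chromosome 7 were called higher, and 0 members lower. With the identifier number as a block, 0 members and 0.023% of all genes were called. Without the block the calls were 6 of 42 members (14.3%), where 6.65% of all 13031 genes were called, 3.94% higher and 2.7% lower. The groups overlapped for every member (0% without overlap, against 0.744% of all genes). The median log2 FC was -0.02 over members and 0.00 over all genes.

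Ugt2b5 (chromosome 5, 87124960 to 87140318) had 15570 to 49388 normalized counts in WT lean mice (median 24611) and 27239 to 78732 in KO lean mice (median 48057). In 3 of 7 KO mice it exceeded the highest WT mouse, 19R at 49388, whose nearest group mate, 26L, had 34732. The log2 FC was 0.91 (SE 0.28, adjusted p = 0.0597). Ugt2b36 (chromosome 5, 87065927 to 87092555) had medians of 13229 and 23931 (0.81, SE 0.28, adjusted p = 0.0817), and Ugt2b38 (chromosome 5, 87409942 to 87424203) had medians of 3385 and 6186 (0.80, SE 0.28, adjusted p = 0.0782). Their neighbours Ugt2b1 (0.65, adjusted p = 0.122) and Ugt2a3 (0.51, adjusted p = 0.138) were not called, and Ugt2b34 had a log2 FC of -0.08.

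Sult1d1 (chromosome 5, 87554645 to 87569027), which sulfates catecholamines, had 4199 to 10113 normalized counts in WT lean (median 6434) and 6918 to 20417 in KO lean mice (median 11740), a log2 FC of 0.78 (SE 0.27, adjusted p = 0.0747). Sult1b1 had medians of 407 and 595 (0.59, SE 0.16, adjusted p = 0.0452). Sult2a7 (chromosome 7, 14465051 to 14494230), of the hydroxysteroid sulfotransferase subfamily, was scarce at medians of 23.1 and 42.5 (0.79, SE 0.27, adjusted p = 0.0797). No Gst gene was called, and their median log2 FC was -0.12 over 18 genes.

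**Figure D4:**
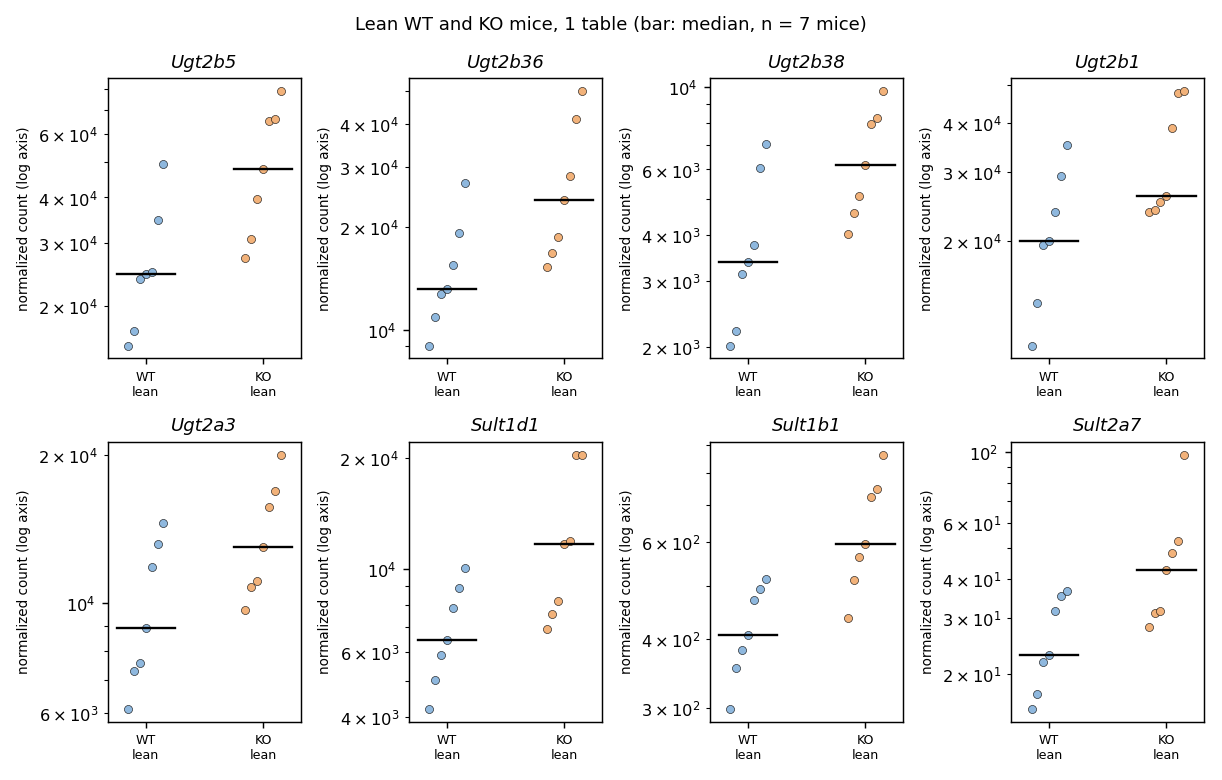
Normalized counts (log axis) of 8 members in each lean WT and KO mouse, with bars at group medians (n = 7 mice per group, 1 table). The median is higher in KO lean mice for each gene, but the groups overlap for all 8, and Ugt2b1 and Ugt2a3 were not called.

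These lean calls depended on single mice and on the fit. With the identifier number as a block, 0 members were called, and only 0.023% of all genes. Leaving out mouse 21L or 26R of the WT, or 14RL, 20-2L or 20L of the KO, also left 0 members, while 1 was left without 9L, 2 without 8R and 3 without 8RL. Equal read totals left 2 and a correction for gene length and GC content left 1, Ugt2b5. The share of all genes called without these mice or in these settings is not given here. Those counts thus show only how the calls moved. In this comparison, which shares the KO lean mice with the KO diet comparison, the median log2 FC fell with exon length, from 0.18 in genes under 1.5 kb to 0.09 between 1.5 and 4 kb and -0.09 above 4 kb, and Ugt2b5, Ugt2b36 and Ugt2b38 have 1858, 2059 and 1891 exonic bases. The part of this trend in the members' values is measured only by that correction, under which Ugt2b5 had a log2 FC of 0.63 (adjusted p = 0.0842), Ugt2b36 0.52 (adjusted p = 0.145) and Ugt2b38 0.51 (adjusted p = 0.134).

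Markers of Kupffer cells, the resident macrophages of liver, moved in the same comparison. All 8 tested markers were called higher in KO lean mice, their summed normalized counts ran from 3899 to 8435 in WT lean (median 5310.5) and from 9288 to 19888 in KO lean mice (median 10155). With the identifier number as a block 0 of the 8 were called (adjusted p = 0.111 to 0.16 with an estimated correlation). Cd5l was the most abundant (log2 FC 1.32, adjusted p = 0.0247), and Adgre1 was not analysed here. Of the hepatocyte markers 0 of 8 were called. The part of this shift in the members' values was not tested. In bulk tissue a change in the number of cells of a type and a change in RNA per cell cannot be told apart. In the KO diet comparison 6 of the 8 Kupffer cell markers were lower in obese mice, with summed counts of 5591 to 7805 against 10236 to 21933 in lean mice, and all 6 were also called with the block. Its part in the KO diet values was not tested either. In WT mice 0 of 8 were called with diet.

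Between obese KO and obese WT mice, 0 of 44 members were called by limma, as against 0.0141% of 14162 genes. At an unadjusted p under 0.05 there was 1 member (against 2.25% of genes), Gstk1, with 631 to 868 normalized counts in KO and 806 to 1202 in WT mice (log2 FC -0.22, SE 0.10, adjusted p = 1). DESeq2 and edgeR called 0 members as well. The log2 FC of members ran from -0.29 (Gstm7) to 0.57 (Ugt2b37), with a median of 0.04 against 0.00 over all genes. Ugt2b5 had a median of 26620 in WT obese and 34219 in KO obese mice (0.13, SE 0.23). The groups overlapped for every member, and 0.0282% of all genes were without overlap.

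RvE1 left no member called in either genotype. In WT obese mice 0 of 42 members passed in limma (0% of 13085 genes), and 1 had an unadjusted p under 0.05 (6.08% of genes). That was Gstt3, with 878 to 2395 normalized counts after RvE1 and 915 to 1721 after vehicle (log2 FC 0.47, SE 0.21, adjusted p = 0.81). The largest absolute value was that of Sult5a1, with 21.5 to 163 after RvE1 and 85.6 to 241 after vehicle (-0.77, SE 0.36, adjusted p = 0.833). Ugt1a5 had medians of 488 and 433 (0.42, SE 0.27, adjusted p = 0.917). No member was without overlap between groups (0.107% of genes), and DESeq2 and edgeR called 0 members.

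In KO obese mice 0 of 44 members passed in limma (0% of 14207 genes), and 3 had an unadjusted p under 0.05 (8.3% of genes), Ugt2b37, Ugt2b34 and Gstp2. Ugt2b37 had 25.4 to 140 normalized counts after RvE1 (median 107) and 84.1 to 628 after vehicle (median 187), a log2 FC of -1.32 (SE 0.47, adjusted p = 0.557). Ugt2b34 had medians of 14323 and 18503 (-0.31, SE 0.14, adjusted p = 0.58). The groups overlapped for every member (0.0211% of genes were without overlap). The median log2 FC was -0.13 over members, with 33 of 44 below 0, against -0.01 over all genes, and no test was made of that shift. Limma called 0 of 42 members (0% of 13059 genes) for the interaction of RvE1 and genotype, and 0 had an unadjusted p under 0.05 (2.38% of genes). DESeq2 and edgeR called 0 members in both of these. For the interaction the median KO minus WT log2 FC was -0.16 over members, with 36 of 42 below 0. Over all genes it was -0.02, and no test was made of this shift either.

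**Figure D5:**
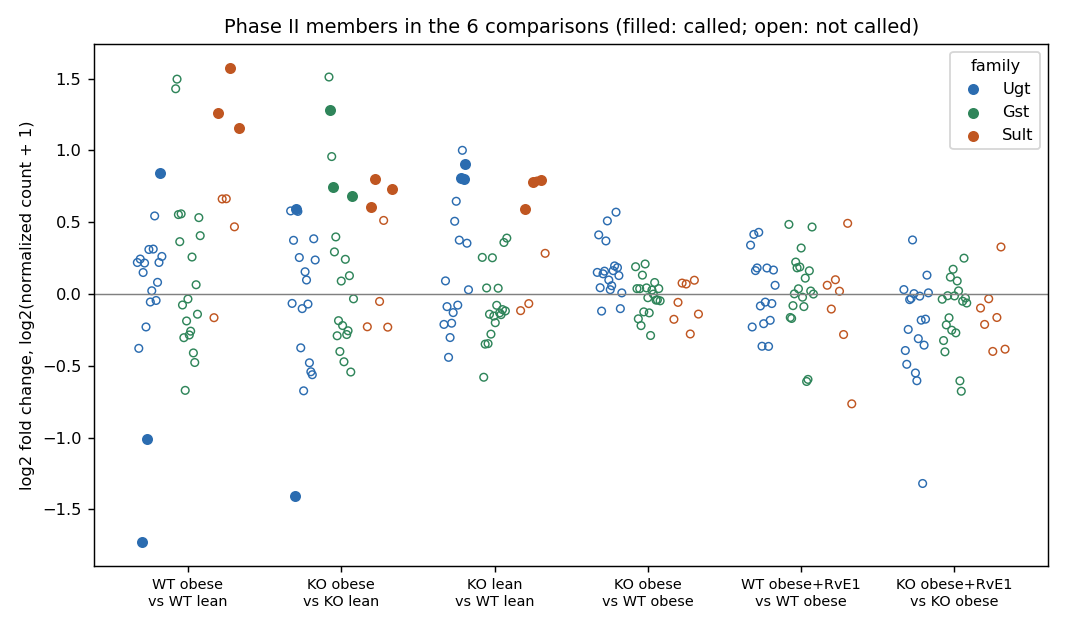
Log2 fold change of every tested member in the 6 comparisons (n = 7 mice per group), on the log2(normalized count + 1) scale, with filled points for called members and colours for the families. Called members are found in the 3 comparisons that include a lean group (6, 8 and 6) and in none of the others, and these comparisons share groups. Of all genes tested, 3.8%, 10.4% and 6.65% were called in those 3, and 0.0141%, 0% and 0% in the others.

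Genes that supply or use the same substrates were read from gene lists. Beside their counts stand the shares of all genes called, which were 2.26% higher and 1.53% lower in the WT diet comparison, 4.97% and 5.42% in the KO diet comparison, and 3.94% and 2.7% between lean groups. These shares hold for the counts without the block in every list described from here on. In either direction, the fit with the block called 1.73%, 5.28% and 0.023% of all genes in these 3 comparisons. Some genes stand in more than 1 list, such as Cyp2b9, Gclc, Slc7a11 and Ugdh, so the list counts are not independent. With the identifier number as a block, the lean comparison called 0 of the 25 list and marker genes called without it, the lowest adjusted p being 0.111 with an estimated correlation. For UDP-glucuronic acid, the sugar donor of the Ugt enzymes, 0 of 7 genes were called in WT obese mice and 2 of 7 were higher in KO obese mice, Ugp2 (log2 FC 0.76, SE 0.21, adjusted p = 0.0263) and Ugdh (0.61, SE 0.12, adjusted p = 0.00646), which make the donor in successive steps. For PAPS, the sulfate donor, 0 of 8 genes were called with diet in WT mice. Slc35b2, the carrier that brings PAPS into the Golgi, was lower in KO obese than KO lean mice (-0.67, adjusted p = 0.0263) and higher in KO lean than WT lean mice (0.88, adjusted p = 0.0357), and both comparisons share the KO lean mice. Papss2, which synthesizes PAPS, was lower in KO lean than WT lean mice (-0.64, adjusted p = 0.0977). With the block Slc35b2 was not called in KO obese mice (adjusted p = 0.118).

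For glutathione synthesis and recycling, 0 of 14 genes were called in WT obese mice. In KO obese mice 2 of 14 were higher, Gclc, the rate-limiting ligase (0.67, adjusted p = 0.0315), and the cystine carrier Slc7a11 (1.17, adjusted p = 0.0906), and 3 were lower, Ggt6 (-0.79, adjusted p = 0.00928), Cbs (-0.59, adjusted p = 0.0208) and Cth (-0.90, adjusted p = 0.0318), the latter pair making cysteine from homocysteine. With the block Gclc (adjusted p = 0.114), Slc7a11 (adjusted p = 0.174) and Cth (adjusted p = 0.138) were not called. In KO lean against WT lean mice 2 of 13 were higher, Gpx4 (0.87, adjusted p = 0.0357) and Chac2 (0.66, adjusted p = 0.0704). Among membrane-bound glutathione transferases and related genes outside the naming rule, such as Clic1 and Eef1g, 0 of 8 were called in WT obese mice. In KO obese mice 0 of 8 were higher and 1 was lower, Clic1 (-0.97, adjusted p = 0.00601). In KO lean against WT lean mice 2 of 7 were higher, Clic1 (0.81, adjusted p = 0.0357) and Mgst1, at a mean of 174230 against 93239 normalized counts (0.88, SE 0.22, adjusted p = 0.04). Both of these comparisons include the KO lean mice.

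Of the pumps and enzymes that move or cleave conjugates, Abcc3, which exports glucuronides to blood, was higher in WT obese (log2 FC 1.19, SE 0.22, adjusted p = 0.00594) and KO obese mice (1.77, SE 0.31, adjusted p = 0.00383) than in their lean groups. It was the sole one of 12 called in WT mice. In KO obese mice Abcb1a (1.29, adjusted p = 0.00637) and Abcc2, the canalicular conjugate pump (0.65, adjusted p = 0.0192), were also higher, and Abcc2 was lower in KO lean than WT lean mice (-0.66, adjusted p = 0.046).

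Some of the sensors that control phase II genes were called. CAR (Nr1i3) was higher in WT obese (log2 FC 0.94, SE 0.29, adjusted p = 0.0912) and KO obese mice (0.60, SE 0.10, adjusted p = 0.00388), as was Ahr (0.62, adjusted p = 0.0957, and 0.69, adjusted p = 0.0578), out of 21 tested. In WT obese mice 2 sensors were higher and 0 lower, beside 2.26% and 1.53% of all genes, and in KO obese mice 4 were higher and 1 lower, beside 4.97% and 5.42%. Among 14 targets of Nrf2, 3 were higher and 1 lower in WT obese mice, and in KO obese mice 7 were higher and 0 lower, beside those same shares of all genes, and the counts were not tested against each other. Nqo1 was higher in both (0.81, adjusted p = 0.0404, and 1.09, adjusted p = 0.00327), as were Aox1 (1.16, adjusted p = 0.00375, and 1.10, adjusted p = 0.00348) and Ephx1 (0.69, adjusted p = 0.00529, and 0.79, adjusted p = 0.0183). The malic enzyme gene Me1 was lower in WT obese mice (-0.66, adjusted p = 0.023). With the block, 0 sensors were called in WT obese mice, where Nr1i3 had an adjusted p = 0.18 and Ahr an adjusted p = 0.167, and 4 in KO obese mice, where Ahr had an adjusted p = 0.118. Of the Nrf2 targets, 3 were then called in WT obese mice, without Nqo1 (adjusted p = 0.134), and 4 in KO obese mice.

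Because Sult1e1 and the Sult2a and Sult3a genes are known to differ between the sexes, genes with a sex bias were read alongside in these male mice. Of 13 male-biased genes, 3 were lower in WT obese mice, Elovl3 (log2 FC -1.88, adjusted p = 0.000291), Cyp4a12b (-1.88, adjusted p = 0.00166) and Cyp4a12a (-1.24, adjusted p = 0.00545), and 5 in KO obese mice, beside 1.53% and 5.42% of all genes. With the block these were 3 and 2. Of the female-biased genes, 2 of 13 were higher in WT obese mice, Cyp2b9 and Cyp2a4 (1.95, adjusted p = 0.0177), while in KO obese mice 4 of 15 rose and 1 fell, beside 2.26% of all genes higher in WT and 4.97% higher in KO obese mice. Among pericentral hepatocyte genes 1 of 12 was higher in WT obese and 3 in KO obese mice, and 0 of 12 periportal genes were called in either. With the block the pericentral counts were 0 and 3. Other conjugating enzymes called higher in WT obese mice were Tpmt, which methylates thiopurines (0.70, adjusted p = 0.025), and Acsm5 (0.68, adjusted p = 0.00121), 2 of 15. In KO obese mice 2 of 15 were higher, Acsm3 (0.71, adjusted p = 0.00233) and Acsm5 (0.72, adjusted p = 0.00933), and 1 was lower, Nnmt, which methylates nicotinamide (-0.81, adjusted p = 0.0732, and 0.234 with the block). Between lean groups 2 of 15 were higher in KO mice, Nnmt (0.94, adjusted p = 0.0527) and the acetyltransferase Nat1 (0.84, adjusted p = 0.0913).

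Markers of other cell types were read in the diet comparisons. In WT obese mice 1 of 7 sinusoidal endothelial cell markers was lower, Dnase1l3 (log2 FC -0.74, adjusted p = 0.0287), and 1 of 2 adipocyte markers, Cfd, was higher. Of the 8 stellate cell, 6 cholangiocyte, 5 lymphocyte, 2 intestinal and 1 acinar pancreas markers tested there, 0 were called. In KO obese mice Cfd was higher as well (3.01, adjusted p = 0.0328). There 3 of 5 lymphocyte markers were lower, among them Ms4a1 of B cells (-1.68, adjusted p = 0.0134), as were Clec4g of endothelial cells (-0.73, adjusted p = 0.0425) and Des of stellate cells (-0.59, adjusted p = 0.0704). In KO lean against WT lean mice, Ms4a1 (1.09, adjusted p = 0.0683) and Fabp2 of intestine (1.19, adjusted p = 0.0393) were higher and Krt19 of cholangiocytes was lower (-0.62, adjusted p = 0.0745). Of CAR, PXR and AhR target cytochromes, 2 of 10 were higher in WT obese mice, 3 of 11 rose and 1 fell in KO obese mice, and 0 of 8 were called between lean groups. With the block Dnase1l3 was not called in WT obese mice (adjusted p = 0.121), nor were Cfd (adjusted p = 0.101), Clec4g (adjusted p = 0.152) and Des (adjusted p = 0.159) in KO obese mice, and 1 lymphocyte marker, Ms4a1, was. The cytochrome that fell, Cyp2c55, was not called with it either (adjusted p = 0.148). The part of these shifts in the members' values was not tested.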

How the data were processed

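Total RNA libraries of 42 livers, 1 per mouse, were sequenced as stranded paired reads. Per the labels and the study's methods, the authors ran FastQC, aligned reads to mm10 with Bowtie2, counted them with featureCounts of Subread and normalized them with DESeq2. Tool versions, gene annotation and the strand option were not given in the sources used here. The deposited values are a signal, that is counts divided by a size factor set separately in each of the 6 tables, and whole reads were recovered for every value within 0.1 reads. The deposited tables also hold the authors' mean, log2 fold change, its SE (a score of at least 0) and p-values, which were not used. Listed reads per library ran from 15992525 to 43841120.

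Groups of 7 mice were compared within a table by limma 3.58.1 with trend on log2(normalized count + 1), for genes with a mean of at least 5 over 14 libraries, in R 4.3.3. A gene was called at a Benjamini-Hochberg adjusted p under 0.1 and a fold above 1.5, and interactions at an adjusted p under 0.1 in a fit of 4 groups. Other settings tried were a pseudocount of 0.5 or 4, no low-value filter, TMM, equal read totals, edgeR 4.0.16, DESeq2 1.42.0, other thresholds, each mouse left out, and the number opening a mouse's identifier as a block. That number may mark a cage or litter, which the labels do not state. A loess correction for length and GC content, leaving out each such number, and the block for the other gene lists were added after seeing the data. Named members were those called in a diet or lean comparison with their neighbours, the largest change and the smallest p elsewhere. The members and gene lists were chosen with earlier results of these data known. Gene models were from GENCODE M21 (GRCm38), in which all 44 members were found. The code was tested on simulated data. Figures were drawn with matplotlib 3.10.9.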

Additional observations from a re-analysis of the deposited data

Results flagged for a closer look

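Sult5a1 in WT lean mice had 1 value far from the others. Mouse 19R had 15.82 normalized counts and the next lowest mouse 46.26, a gap of 0.679 of the group's whole range on the log2(normalized count + 1) scale. On the linear scale the gap was 0.506 of the range, which does not pass the limit used. It was 1 of 40 groups tested, and chance alone marks about 1 in 20. With each mouse left out in turn, the log2 FC of Sult5a1 between WT obese and WT lean mice ran from 0.88 to 1.26.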

How the results depend on the processing

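Between WT obese and WT lean mice 6 members were called, against 10 with DESeq2, 2 at an absolute log2 FC above 1.5 and 4 to 9 with each mouse left out. Sult1b1, Ugt1a5, Ugt1a9 and Ugt3a1 were called with every mouse left out and with the identifier number as a block. The block called 1.73% of all genes in this comparison. Between KO obese and KO lean mice 8 were called. With the block 3 were called (5.28% of all genes), and 15 without the fold criterion (24.1% of all genes). The count was 3 with 0.05 as the limit on adjusted p and 0 at an absolute log2 FC above 1.5. With each mouse left out it was 4 to 12. It was 3, 5, 4, 14 and 4 without the mice of number 9, 10, 14, 20 and 31. Between KO lean and WT lean mice 6 were called, against 0 with the block, 2 with equal read totals, 1 with the length and GC correction, 1 at an adjusted p under 0.05, 0 at an absolute log2 FC above 1.5, 0 to 7 with each mouse left out, and 2, 0, 0 and 0 without number 8, 9, 21 and 26. Without number 6, 2 members (Gstp1 and Gstp2) were called for RvE1 in WT mice, and without KO lean mouse 20R, 1 (Ugt3a1) for the interaction of diet and genotype, against 0 in each. The cause was not tested. DESeq2 called 6.65% of all genes for that interaction and 0 members. For the other settings in this paragraph the share of all genes is not given, so their counts show only how the calls moved.

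Values that changed sign belonged to members not called. With equal read totals, which moved the median log2 FC of all genes by 0.14 in the KO diet and -0.12 in the lean comparison, they were 0.11 (Gstz1), 0.095 (Sult1d1) and 0.077 (Ugt2b36) for KO diet, -0.075 (Gstk1), -0.076 (Gsto1) and -0.087 (Ugt3a2) for lean genotype, and 0.042 (Ugt3a1) for the interaction of RvE1 and genotype. With the length and GC correction they were -0.011 (Ugt2b38) for WT diet, 0.16 (Sult1d1) and 0.094 (Ugt2b36) for KO diet, and -0.10 (Gstk1), -0.057 (Gsto1) and -0.10 (Ugt3a2) for lean genotype. The block gave 0.018 (Sult1d1) for KO diet. For the interaction of RvE1 and genotype, edgeR gave 0.022 (Ugt3a1), -0.14 (Sult1e1) and 0.077 (Ugt1a9), DESeq2 gave 0.0093 (Ugt3a1), -0.15 (Sult1e1) and 0.048 (Ugt1a9), and the block gave -0.19 (Sult1e1).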

Other observations

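Sult3a1, a sulfotransferase with higher expression in female liver, was not among the members because it was not listed between WT obese and WT lean mice. It had 1.12 to 13.6 normalized counts in KO obese mice (median 2.37) and 4.63 to 30.8 in KO obese+RvE1 mice (median 7.83), with a log2 FC of 1.18 (SE 0.51, adjusted p = 0.579), so it was not called.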
